A study of Rattus norvegicus with 4 samples.

Results

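The early response of MMQ cells to UNC9994 was described from 1 library of cells treated for 12 h with 15 µM UNC9994 and 1 library of cells given its vehicle, DMSO, for the same time. MMQ is an established rat pituitary tumour line that secretes prolactin. The members are the gene IDs that reached at least 1 FPKM in either of these 2 libraries. FPKM is a deposited read density, corrected for gene model length and library size. The rule sets no bound on the difference between the libraries, but an ID near 1 FPKM can enter through its higher library only. The members number 13281 of the 33832 IDs in the series, 12535 with an Ensembl number and 746 without one. Of these, 12275 reached 1 FPKM in both libraries, 619 in the UNC9994 library only and 387 in the DMSO library only. The members held 99.8% of the reads of the DMSO library and 99.7% of the reads of the UNC9994 library. The series also holds 1 DMSO and 1 UNC9994 library from 24 h of the same treatments, which the rule did not use.

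In the pituitary, dopamine released from the hypothalamus acts on the D2 receptor of prolactin-secreting cells, the lactotrophs. The receptor couples to inhibitory G proteins, which lower cyclic AMP and restrain prolactin release and transcription, and it also recruits beta-arrestins, which carry a separate branch of signalling. UNC9994 is a D2 receptor ligand developed for bias towards the beta-arrestin branch. Gene names are not part of the files and 0 IDs could be matched to one, so prolactin, the D2 receptor and the markers of pituitary cell types are not analysed here, and the cell type was not checked. The response is therefore described by abundance class, by kind of ID and by the 4 leading Ensembl IDs.

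With 1 library a side, every value below compares 2 libraries and has no replicate error, no standard error and no p-value. A culture or library effect and a drug effect cannot be told apart within the pair. Reads were recovered from the deposited values, with totals of 19933310 for DMSO and 21728374 for UNC9994 at 12 h. Intervals given with reads cover counting error only. Ratios are UNC9994 over DMSO, as log2 of FPKM + 0.5, which understates the difference of IDs of low abundance. Called means a ratio of 2-fold or more on this scale.

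At 12 h most members differed by small amounts between the 2 libraries. The median log2 ratio of the members was -0.0086, and the middle of the distribution, from the lower to the upper quartile, ran from -0.23 to 0.23. Of the 13281 members, 8318 (62.6%) lay within 1.25-fold of no difference, 2327 (17.5%) were 1.5-fold or more apart, and 950 (7.15%) were 2-fold or more apart. Of the 950, 414 were higher with UNC9994 (3.12% of the members) and 536 were lower (4.04%). At 4-fold or more there were 85 higher and 65 lower IDs, and at 8-fold or more 11 higher and 15 lower. More members were thus lower than higher at 2-fold, and more were higher than lower at 4-fold. The excess at 4-fold came from IDs of low abundance: with a mean of 5 FPKM or more, 16 were higher and 24 lower, and the median DMSO value of the 4 to 8-fold higher IDs was 0 FPKM. The ratio was within 2-fold for 12331 members.

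The same measure between libraries of equal treatment shows how far such single libraries differed without a change of treatment. It includes 12 h more in culture and, in the UNC9994 pair, 12 h more of exposure to the drug. DMSO at 24 h against DMSO at 12 h, which shares the 12 h DMSO library with the drug comparison, had 455 of 13144 IDs past 2-fold (3.46%, with 2.05% higher and 1.41% lower). UNC9994 at 24 h against 12 h, which shares the 12 h UNC9994 library, had 458 of 13285 (3.45%, with 1.72% higher and 1.73% lower). The median absolute log2 ratio was 0.23 for UNC9994 against DMSO at 12 h. It was 0.14 for the DMSO pair and 0.13 for the UNC9994 pair. Ratios within 1.25-fold were less frequent in the drug pair at 12 h (62.6%) than in the DMSO pair (81.6%) and the UNC9994 pair (80.6%). Ratios of 1.5-fold or more were more frequent, 17.5% against 7.47% and 8.14%. The gap narrowed as the ratio grew. At 4-fold or more the drug pair held 150 IDs (1.13%), the DMSO pair 122 (0.928%) and the UNC9994 pair 133 (1.00%). At 8-fold or more the numbers were 26, 25 and 17.

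**Figure D1:**
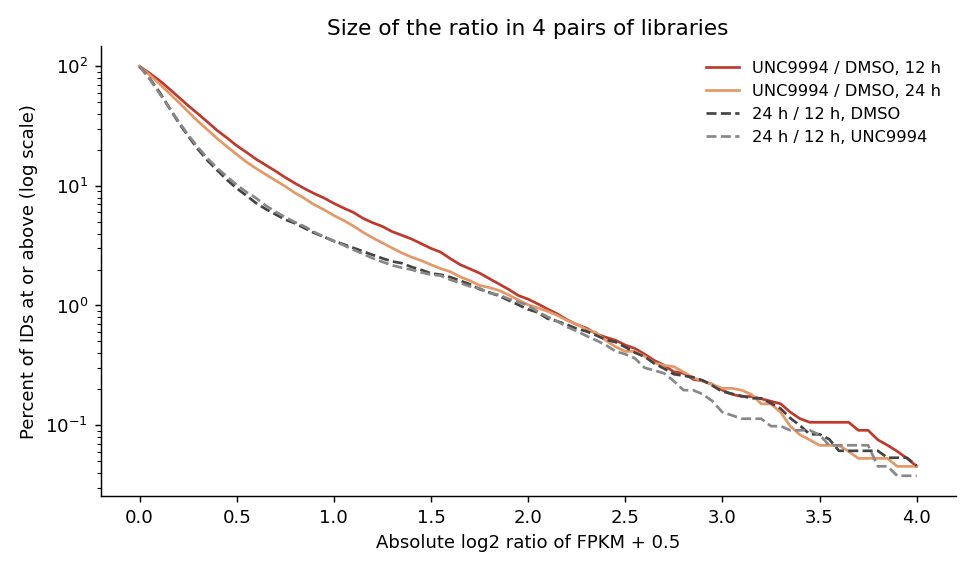
Percent of IDs (y axis, log scale) whose absolute log2 ratio of FPKM + 0.5 was at or above the value on the x axis, in 4 pairs of single libraries; solid lines are UNC9994 against DMSO at 12 h and 24 h, dashed lines are 24 h against 12 h within a treatment. At a log2 ratio of 1 the drug pair at 12 h stands at 7.15% and the pairs of equal treatment at 3.46% and 3.45%, while at 3 the lines lie close together, at 0.196%, 0.190% and 0.128%.

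The contrast was sharper for IDs whose mean in the pair compared reached 5 FPKM. Of 9409 such members at 12 h, 391 (4.16%) were past 2-fold between UNC9994 and DMSO. In the DMSO pair 71 of 9415 (0.754%) were, and in the UNC9994 pair 83 of 9427 (0.880%). At 4-fold or more the counts were 40 (0.425%), 27 (0.287%) and 21 (0.223%), and at 8-fold or more 17, 15 and 10. The drug pair at 24 h, which shares no library with the 12 h pair, stood at 256 of 9476 IDs past 2-fold (2.70%) and 13 past 8-fold. Over all of its own members, 754 of 13308 IDs were past 2-fold at 24 h (5.67%).

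Direction went with abundance. The members were put into 6 classes by the mean FPKM of the 12 h libraries. In the class under 2 FPKM, 237 IDs were 2-fold or more higher with UNC9994 and 133 lower, out of 1788. From 2 to 5 FPKM the numbers were near each other, 98 higher and 91 lower of 2084. From 5 to 20 FPKM, 50 were higher and 201 lower of 4752, and from 20 to 100 FPKM 23 were higher and 100 lower of 3871. The higher IDs made up 64.1% of the called IDs in the lowest class, 19.9% from 5 to 20 FPKM (95% exact binomial interval 15.2 to 25.4) and 18.7% from 20 to 100 FPKM (12.2 to 26.7). Above that, 6 were higher and 10 lower of 668 from 100 to 500 FPKM, and 1 of the 118 IDs at 500 FPKM or more was past 2-fold, in the lower direction. In the lowest class the membership rule and the call are linked, since 230 of the 237 higher IDs reached 1 FPKM in the UNC9994 library only and 129 of the 133 lower IDs in the DMSO library only. Without IDs listed at 0 in either library this class held 151 higher and 95 lower called IDs, which does not undo the link. Of the 842 IDs of this class with at least 1 FPKM in both libraries, 7 were called higher and 4 lower. The direction of the lowest class thus rests mostly on IDs that entered through the library where they were high. The intervals assume independent IDs, an assumption that transcripts of the same cells do not meet.

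Part of this pattern was also present between the DMSO libraries. In the class under 2 FPKM, 179 IDs were higher and 96 lower at 24 h than at 12 h, out of 1693, so that 65.1% of the called IDs were higher there as well. From 5 to 20 FPKM the DMSO pair held 20 higher and 30 lower IDs of 4730, and from 20 to 100 FPKM 6 and 9 of 3876. Among the called IDs of the 12 h drug pair, the lower IDs of middle abundance stood furthest above the DMSO pair in number, with 201 and 100 IDs against 30 and 9. Whether the drug caused this was not tested. UNC9994 against DMSO at 24 h had the same kind of lean in these classes, 48 higher and 122 lower from 5 to 20 FPKM and 21 and 50 from 20 to 100 FPKM. Under 2 FPKM it had 158 higher and 173 lower.

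**Figure D2:**
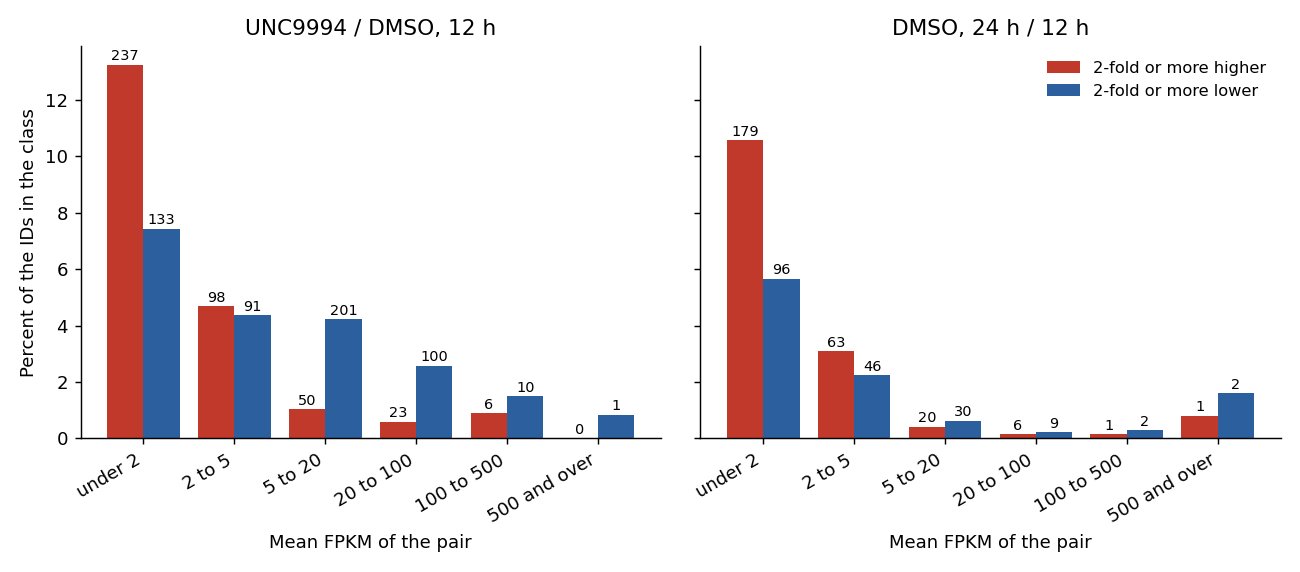
Percent of the IDs of each abundance class (x axis, mean FPKM of the pair compared) that were 2-fold or more higher (red) or lower (blue), for UNC9994 over DMSO at 12 h (left) and for DMSO at 24 h over 12 h (right), with the number of IDs above each bar and 1 library on each side. On the left the lower bars exceed the higher ones from 5 to 20 FPKM (201 against 50) and from 20 to 100 FPKM (100 against 23), and on the right these classes hold 30, 20, 9 and 6 IDs.

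Depth differed strongly between these classes. The median member of the class under 2 FPKM had 27 reads in the DMSO and 37 in the UNC9994 library, against 1610 and 1728 reads from 20 to 100 FPKM. Of the 370 called IDs under 2 FPKM, 261 had a mean under 20 reads, and the 95% counting interval of the read ratio lay wholly on 1 side of no difference for 196. From 5 to 20 FPKM it did for 245 of 251 called IDs and from 20 to 100 FPKM for all 123. With a mean of at least 20 reads the called IDs under 2 FPKM were 71 higher and 38 lower, and those of all classes together 211 higher and 409 lower, a share of 34.03% higher instead of 43.6%. This filter does not undo the link between the membership rule and the call under 2 FPKM. The counting interval thus reached no difference for many called IDs under 2 FPKM and for few above 5 FPKM.

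The typical ratio of a class shifted much less than its tails. The median log2 ratio was 0.19 under 2 FPKM, 0.067 from 2 to 5 FPKM and -0.0043 from 5 to 20 FPKM. It was -0.057 from 20 to 100 FPKM and -0.12 from 100 to 500 FPKM, and 0.11 at 500 FPKM or more. When the libraries were scaled to total recovered reads, which adds 0.059 to every log2 ratio before the pseudocount, the medians from 5 to 20 and from 20 to 100 FPKM turned to 0.052 and 0.0011, while those of the other classes kept their sign. The excess of lower over higher IDs past 2-fold in these classes did not turn (180 against 64 and 94 against 29). The SD of the log2 ratio decreased from 0.85 under 2 FPKM to 0.42 from 20 to 100 FPKM and 0.33 at 500 FPKM or more.

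**Figure D3:**
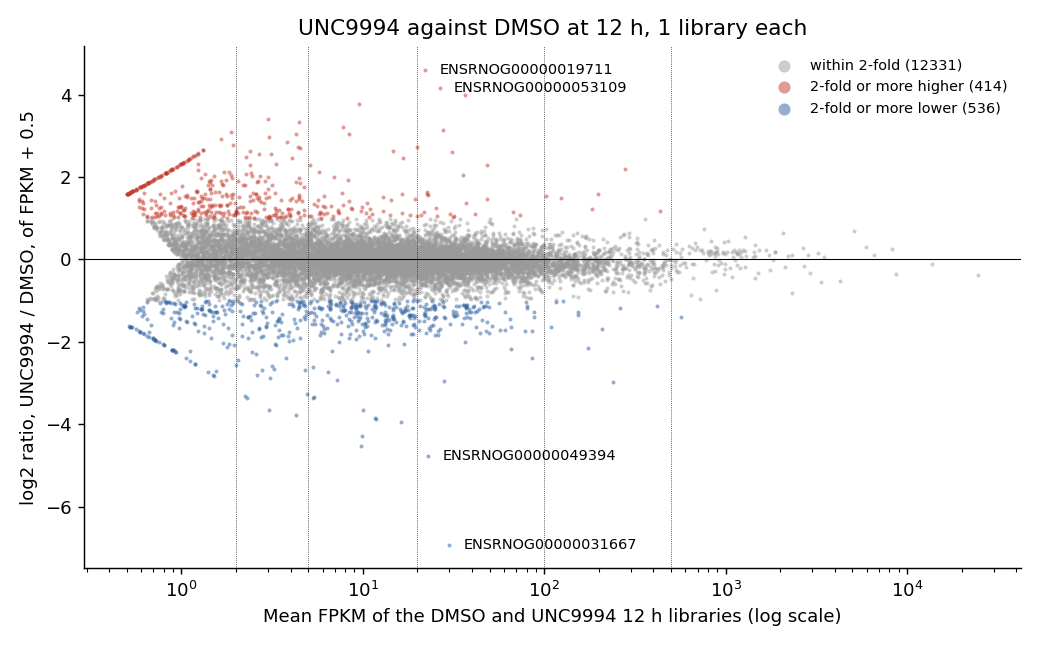
Log2 ratio of UNC9994 over DMSO at 12 h (y axis, FPKM + 0.5) of each of the 13281 members against the mean FPKM of the libraries (x axis, log scale), with dotted lines at the class bounds and the 4 leading Ensembl IDs labelled. The 414 higher IDs (red) crowd to the left and the 536 lower IDs (blue) extend through the middle classes; the slanted rows at far left are IDs listed at 0 in 1 of the libraries.

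Few of the most abundant IDs were far apart at 12 h. The median absolute log2 ratio at 500 FPKM or more was 0.19, near the 0.18 from 20 to 100 FPKM. In the DMSO pair it was 0.11 at 500 FPKM or more. Of the 118 IDs at 500 FPKM or more, which held 19.2% of the DMSO reads and 19.4% of the UNC9994 reads, 71 had a ratio above no difference and 47 below it. Only 3 of them were 1.5-fold or more higher and 5 were 1.5-fold or more lower. The most abundant ID of all stood at 27721 FPKM in DMSO and 21469 in UNC9994 at 12 h, and at 27927 and 24535 at 24 h. Its DMSO values were nearly equal at the 2 times, and both UNC9994 values were lower, the 12 h one more so (log2 ratio -0.37 at 12 h and -0.19 at 24 h). The second most abundant stood at 14244 and 13175 FPKM at 12 h and at 13957 and 14430 at 24 h. Its UNC9994 value was below DMSO at 12 h and above it at 24 h. Among the 12 most abundant IDs, the highest ratio at 12 h belonged to the seventh, with 3896 FPKM in DMSO and 6328 in UNC9994 (log2 ratio 0.70), and 3309 and 6479 at 24 h. Both UNC9994 values of this ID lay above both DMSO values. The tenth had the lowest ratio of the 12, with 4017 and 2735 FPKM (log2 ratio -0.55) at 12 h and 3661 and 3290 at 24 h.

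The single ID of this class past 2-fold stood at 825 FPKM in DMSO and 312 in UNC9994 at 12 h (log2 ratio -1.40), and at 362 and 647 at 24 h (0.83). It was low in UNC9994 at 12 h and in DMSO at 24 h, so its ratio turned between the times. In the class from 100 to 500 FPKM, the 6 IDs 2-fold or more higher at 12 h were also higher at 24 h, with log2 ratios of 1.17 to 2.19 at 12 h and 0.84 to 2.06 at 24 h. Of the 10 that were 2-fold or more lower at 12 h, 9 were also lower at 24 h. The exception was an ID without an Ensembl number, at 425 FPKM in DMSO and 53.5 in UNC9994 at 12 h and 96.2 and 325 at 24 h. The next 5 lower IDs by size of ratio ran from -2.14 to -1.28 at 12 h and from -1.20 to -0.66 at 24 h, so that their 24 h ratios were closer to no difference.

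The 24 h libraries were used to follow the called IDs in libraries that did not enter the 12 h ratio. Of the 536 IDs 2-fold or more lower at 12 h, 445 were also lower at 24 h (83.0%, 95% exact binomial interval 79.6 to 86.1) and 176 were 2-fold or more lower again (32.8%). Of the 414 higher IDs, 271 were also higher at 24 h (65.5%, 60.7 to 70.0) and 104 were 2-fold or more higher again (25.1%). For comparison, 50.5% of all members had a ratio below and 49.2% above no difference at 24 h. Of the 13308 IDs with at least 1 FPKM in either 24 h library, 3.26% were 2-fold or more lower and 2.40% higher. These base shares varied with abundance in the 24 h pair. They were 9.92% and 9.06% under 2 FPKM, and 1.30% and 0.546% from 20 to 100 FPKM. Of the 414 IDs called higher at 12 h, 237 lay under 2 FPKM. The IDs called lower at 12 h had a median log2 ratio of -1.37 at 12 h and of -0.77 at 24 h. Those called higher had medians of 1.48 and 0.49. Part of such a shrinkage is built in, since the IDs were picked for their 12 h ratio. The intervals of these and the following same-sign shares also assume independent IDs and do not cover variation between libraries.

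The share of called IDs with the same sign at 24 h was larger in the middle classes than in the low ones. Of the called lower IDs, 68.4% had the same sign at 24 h under 2 FPKM, 73.6% from 2 to 5 FPKM, 91.0% from 5 to 20 FPKM and 95 of 100 from 20 to 100 FPKM. Of the called higher IDs, the shares were 57.0%, 71.4%, 82.0% and 82.6%. From 100 to 500 FPKM it was 9 of 10 lower and 6 of 6 higher IDs, and the 1 lower ID at 500 FPKM or more turned. The share of lower IDs that were 2-fold or more lower again had no steady order, with 29.3% under 2 FPKM, 20.9% from 2 to 5 FPKM, 36.8% from 5 to 20 FPKM, 42 of 100 from 20 to 100 FPKM and 2 of 10 from 100 to 500 FPKM. Of all IDs in these classes of the 24 h pair, 9.92%, 3.98%, 2.52%, 1.30% and 0.742% were 2-fold or more lower.

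The share with the same sign at 24 h declined with the size of the ratio at 12 h. Among IDs 2 to 4-fold lower at 12 h, 405 of 471 were lower at 24 h (86.0%). Among those 4 to 8-fold lower it was 32 of 50 (64.0%), and among those 8-fold or more lower 8 of 15 (53.3%, 95% exact binomial interval 26.6 to 78.7). On the higher side the numbers were 224 of 329 (68.1%), 42 of 74 (56.8%) and 5 of 11 (45.5%, 16.7 to 76.6). The share past 2-fold again in the same direction did not decline on the higher side, with 23.1%, 32.4% and 36.4% (4 of 11) in order of size. On the lower side it was 33.8%, 15 of 50 and 13.3% (2 of 15). The lower side kept the order of the same-sign shares among the more abundant IDs. Restricted to a mean of 5 FPKM or more, 272 of 288 (94.4%) of the 2 to 4-fold lower, 10 of 14 of the 4 to 8-fold lower and 5 of 10 of the 8-fold or more lower IDs had the same sign at 24 h. On the higher side these were 54 of 63 (85.7%), 9 of 9 and 3 of 7, an order that the middle group breaks.

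**Figure D4:**
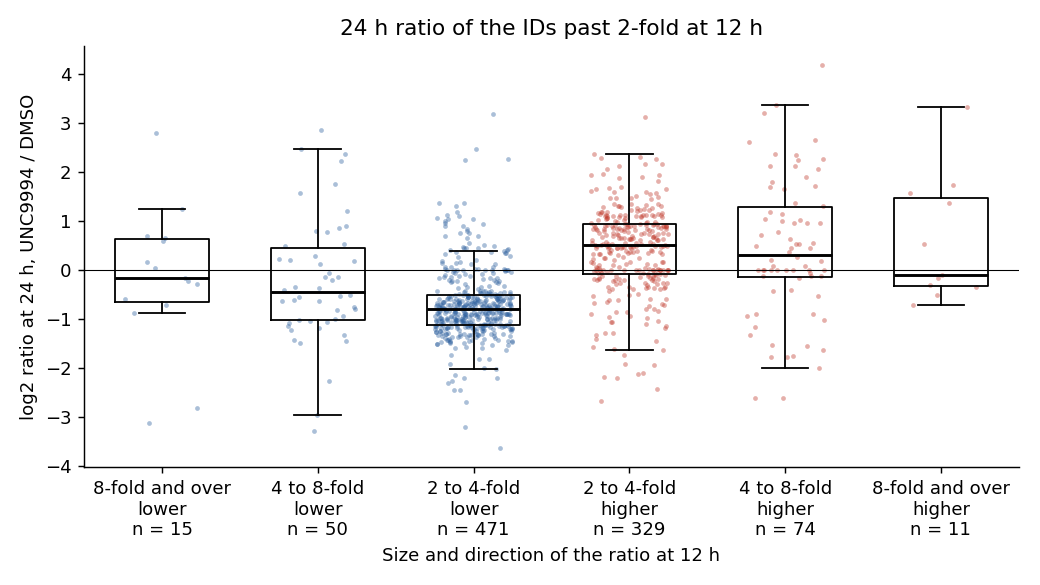
Log2 ratio of UNC9994 over DMSO at 24 h (y axis) of the IDs past 2-fold at 12 h, grouped by size and direction at 12 h (x axis); points are IDs with random sideways spread, boxes give the quartiles and median, whiskers reach the last point within 1.5 box lengths. The medians are -0.80 and 0.50 for the 2 to 4-fold groups and -0.17 and -0.11 for the groups of 8-fold and over.

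The leading IDs show what the largest ratios were made of. The 2 highest and 2 lowest Ensembl IDs that averaged 2 FPKM or more over the pair are given here. ENSRNOG00000019711 had the highest ratio, with 1.29 FPKM in DMSO and 42.9 in UNC9994 at 12 h, and 0.882 and 0.469 at 24 h. It was high in the UNC9994 library at 12 h alone, from 23 and 872 reads at 12 h, a 33.4-fold difference (95% counting interval 22.1 to 52.97), with log2 ratios of 4.60 and -0.51. ENSRNOG00000053109 had 2.36 FPKM in DMSO and 50.6 in UNC9994 at 12 h, and 2.50 and 1.94 at 24 h. It too was high in that library alone, 21.5-fold at 12 h (13.2 to 37.2, from 17 and 414 reads), with log2 ratios of 4.16 and -0.30.

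ENSRNOG00000031667 had the lowest ratio, with 59.8 FPKM in DMSO at 12 h, 0 in UNC9994 at 12 h, and 2.38 and 1.97 at 24 h. The fewest whole reads that give these values are 85 and 0 at 12 h and 3 and 3 at 24 h. Against the 3 reads that a count of 0 allows in a library it was at least 32.2-fold lower with UNC9994 at 12 h, and the lower bound of its 95% counting interval, which also covers the error of the 85 reads, was 25.6-fold. It was high in the DMSO library at 12 h alone, and its 24 h values rest on a few reads. ENSRNOG00000049394 had 44.8 FPKM in DMSO and 1.17 in UNC9994 at 12 h, and 1.23 and 0.656 at 24 h. Its 12 h reads were 573 and 17, a 38.3-fold difference (23.7 to 66.1), with log2 ratios of -4.76 and -0.59. The DMSO library at 12 h again stood alone, 4.71 log2 units above the DMSO library at 24 h.

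The other IDs past 8-fold were of mixed kinds. Of the 15 lower IDs, 9 stood at least 4-fold higher in DMSO at 12 h than in each of the other libraries, and 1 of these 9 together with another ID stood at least 4-fold lower in UNC9994 at 12 h than in each of the others. Of the 11 higher IDs, 6 stood at least 4-fold higher in UNC9994 at 12 h than in each of the others and 2 at least 4-fold lower in DMSO at 12 h. Both UNC9994 values lay below both DMSO values for 8 of the 15 lower IDs and above them for 5 of the 11 higher IDs. Over all members, which were not chosen by direction, 30.3% had the lower and 28.3% the higher order. Choice by the 12 h ratio fixes part of this order, so these shares are no baseline for the called IDs. Among the 2 to 4-fold IDs, chosen in the same way, 394 of 471 lower (83.7%) and 217 of 329 higher IDs (66.0%) had it. Of the lower IDs, the fourth and the next after it had the lowest ratios at 24 h. The fourth had 19.4 and 8.99 FPKM in the DMSO and 0.524 and 0.590 in the UNC9994 libraries at 12 h and 24 h. The next had 30.8 and 16.2 FPKM in DMSO and 1.54 and 1.89 in UNC9994. On the higher side, the eighth ID had the highest ratio at 24 h, with 5.23 and 2.25 FPKM in DMSO and 50.4 and 26.8 in UNC9994 at 12 h and 24 h. The log2 ratios of these 3 IDs at 24 h were -3.12, -2.81 and 3.31. They were picked out after their values were seen.

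**Figure D5:**
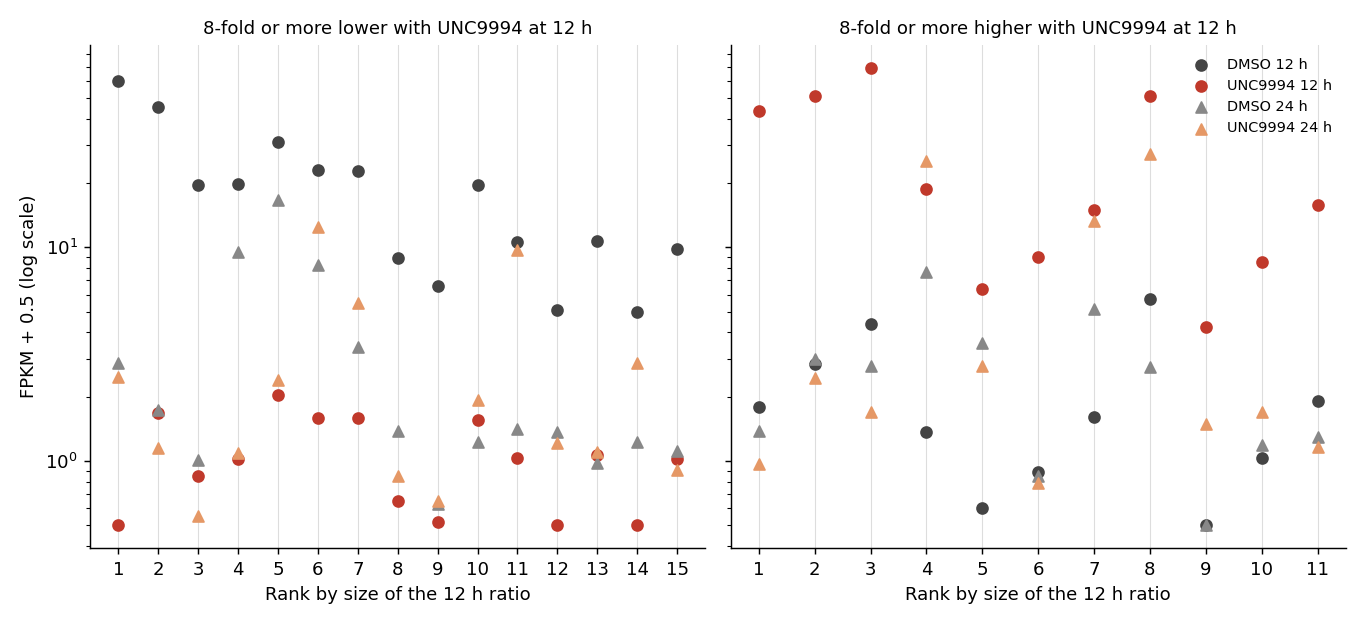
FPKM + 0.5 (y axis, log scale) in the 4 libraries of the 15 IDs 8-fold or more lower (left) and the 11 IDs 8-fold or more higher (right) with UNC9994 at 12 h, in order of the size of the 12 h ratio (x axis); circles are 12 h and triangles 24 h libraries. In most columns 1 circle stands apart from the other 3 symbols, and columns 4 and 5 on the left and column 8 on the right have a wide gap between the treatments at 24 h too.

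Such single-library values were not limited to the 12 h libraries. Of the 13701 IDs with at least 1 FPKM in any library, 24 stood at least 4-fold above each of the others in UNC9994 at 12 h, 15 in DMSO at 12 h, 20 in DMSO at 24 h and 15 in UNC9994 at 24 h. Values 4-fold below each of the others were seen for 7, 6, 3 and 4 IDs in the same order. Their part in the 12 h response was not tested beyond these counts.

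IDs listed at 0 in 1 of the 12 h libraries made up 127 of the members. There were 86 listed at 0 in DMSO, with a median of 1.48 FPKM in UNC9994 and a highest value of 3.74. There were 41 listed at 0 in UNC9994, with a median of 1.499 FPKM in DMSO, the highest being ENSRNOG00000031667. Of the 86, 44 were above 0 in DMSO at 24 h, and of the 41, 26 were above 0 in UNC9994 at 24 h. All of them are called by the pseudocount scale, since 1 FPKM against 0 gives a log2 ratio of 1.58. At the edge of the membership rule, the 2 IDs just inside stood at 0 in DMSO and 1.00 FPKM in UNC9994, and the 2 just outside at 0.999 FPKM in DMSO and 0 and 0.440 in UNC9994.

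The 746 members without an Ensembl number leaned higher. Their median log2 ratio at 12 h was 0.19, against -0.016 for the 12535 Ensembl IDs, and 65.8% of them had a ratio above no difference, against 47.9%. Of these IDs 44 were 2-fold or more higher and 18 lower (5.90% and 2.41%), while 370 Ensembl IDs were higher and 518 lower (2.95% and 4.13%). They were less abundant, with a median of 2.70 FPKM against 12.9. Under 2 FPKM both kinds leaned higher, with medians of 0.24 for 264 IDs without an Ensembl number and 0.17 for 1524 Ensembl IDs. Within the class from 2 to 5 FPKM the medians were 0.23 for 276 such IDs and 0.050 for 1808 Ensembl IDs, and from 5 to 20 FPKM 0.12 for 163 and -0.0082 for 4589. From 20 to 100 FPKM the 37 IDs without an Ensembl number stood at -0.061 and the 3834 Ensembl IDs at -0.057. At 24 h, their medians over all classes were 0.13 and -0.0083. The DMSO libraries gave the same order, 0.11 and -0.018 for 24 h over 12 h.

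Called IDs were most frequent among short gene models. Gene model length was recovered along with the reads, as the shortest length that gives whole reads. The members were put into 4 classes of nearly equal size by length. In the class with the shortest models, up to 1144 bases, 470 of 3321 members were past 2-fold (14.2%), 261 of them higher and 209 lower. These include all 127 members listed at 0 in 1 of the 12 h libraries, 86 higher and 41 lower, which the pseudocount scale calls in any case. Their recovered lengths can be too short. In the other classes the called share was 4.997%, 5.12% and 4.34% in order of length, and the higher IDs were 40.4%, 28.2% and 26.4% of the called ones, against 55.5% in the shortest. The shortest class also had the lowest median abundance, 6.90 FPKM against 11.3 to 15.5 in the others. Length and abundance were not separated.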

How the data were processed

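RNA of 4 libraries was measured, 1 for each of DMSO and UNC9994 at 12 h and 24 h. The deposited values are FPKM, made by the authors, per the file headers. CASAVA, TopHat2 (2.0.7), Bowtie2, HTSeq and build Rnor_6.0 are named in the submitters' processing notes. The FPKM tool, annotation and strand handling are not stated in the labels or headers used here. Of 35042 rows, 1209 exact repeats and 1 truncated ID, all listed at 0, were removed. The gene table at hand gives an Ensembl ID for 0 of 47357 rat genes, so the 22 gene lists (552 genes) were not used. The naming rule for unnamed IDs was used, the 2 highest and 2 lowest Ensembl IDs averaging 2 FPKM or more at 12 h.

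Ratios are log2 of FPKM + 0.5. Reads and gene model lengths were recovered as the smallest that make the FPKM of all 4 libraries whole within 0.001 reads, which held for all 16009 IDs above 0 in every library. A common factor can make both too small, above all for IDs above 0 in 1 library. Totals were 99.6% of the scaling divisor for DMSO and 95.6% for UNC9994 at 12 h, and 98.2% and 98.6% at 24 h. Scaling to these totals instead gave 464 IDs 2-fold or more higher and 488 lower at 12 h. The 95% intervals are exact binomial (Clopper-Pearson, scipy 1.17.1). Functions were tested on simulated data, where recovery was checked only for IDs above 0 in every library. The simulated gene models were longer than the one recovered for ENSRNOG00000031667. No test between groups was possible with 1 library each. Alternatives varied pseudocount, filter, scaling and ID kind. The comparison, classes and rules were chosen with earlier results of these data known.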

Additional observations from a re-analysis of the deposited data

Results flagged for a closer look

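The sign of the ratio differed between 12 h and 24 h for 2 of the 4 leading IDs, a difference that was not tested. ENSRNOG00000019711 had a log2 ratio of 4.60 at 12 h and of -0.51 at 24 h. That of ENSRNOG00000053109 was 4.16 at 12 h and -0.30 at 24 h. The 24 h ratios rest on 14 and 9 reads in DMSO and UNC9994 for ENSRNOG00000019711 (fold 0.531, 95% counting interval 0.203 to 1.32) and on 16 and 15 for ENSRNOG00000053109 (0.775, 0.357 to 1.67). Both intervals include a fold of 1, so an opposite direction at 24 h was not shown at this depth.

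Among all members, 35 IDs past 2-fold in the higher direction at 12 h were past 2-fold in the lower direction at 24 h. The reverse order, lower then higher, was seen for 22 IDs. These differences were not tested either. Of the 35, 0 had a mean of 5 FPKM or more at 12 h, and of the 22, 6 had. The largest turn in both pairs, of an ID singled out after its values were seen, went from a log2 ratio of -3.36 at 12 h (10.1 FPKM in DMSO and 0.531 in UNC9994) to 2.78 at 24 h (0.918 and 9.24).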

How the results depend on the processing

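Over the alternative settings, 28 of 45 recomputed counts, shares and medians stayed close to the report, that is within 1.5 times a count or inside the 95% interval of a share or median. These intervals treat IDs as independent and do not cover variation between libraries. The share of higher IDs among those past 2-fold (43.6%) was 47.1% with a pseudocount of 0.1, 40.3% with 1, 48.8% when scaled to summed FPKM, 48.7% when scaled to total recovered reads, 39.1% with a mean FPKM of at least 1, 24.6% with at least 5 FPKM in either library and 34.03% with a mean of at least 20 reads. The last 2 filters also left 118 and 211 higher IDs instead of 414. By construction they drop IDs of low abundance. The called IDs under 2 FPKM leaned higher, mostly through IDs that entered by the library where they were high. The median absolute log2 ratio (0.23) was 0.24 and 0.22 with pseudocounts of 0.1 and 1, 0.20 with at least 5 FPKM, 0.22 with a mean of at least 1 FPKM, 0.226 for Ensembl IDs and 0.047 with no filter, where most IDs are listed at 0. The share of called IDs with the same sign at 24 h (75.4%) was 88.3% with at least 5 FPKM and 79.7% with a mean of at least 1 FPKM. Of 20 alternative values of the 4 printed IDs, 0 turned in sign, which their selection made near certain. The log2 ratio of ENSRNOG00000031667 went from -6.91 to -9.23 with a pseudocount of 0.1, because it is listed at 0 on 1 side. The scaling to total reads, the filter on reads and all alternatives of the 24 h share were chosen after seeing the data. No paired analysis was possible because each group holds 1 library. Leaving out a library would leave no pair.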

Other observations

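Some abundant IDs shared a crossed pattern over the 4 libraries, high in the 12 h DMSO and the 24 h UNC9994 library and low in the other 2. The ID without an Ensembl number in the class from 100 to 500 FPKM (425 and 325 FPKM against 53.5 and 96.2) and the only ID past 2-fold at 500 FPKM or more (825 and 647 against 312 and 362) both had it. They were singled out after their values were seen, and no cause was tested. At 500 FPKM or more the same 118 IDs had a median log2 ratio of 0.11 at 12 h and of 0.32 at 24 h, while the median between the DMSO libraries was -0.11.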
